A study of Mus musculus with 13 samples.

Results

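The mRNAs of 9 genes of the lysosomal protease system were followed across the cells of the mouse medial amygdala: the cysteine cathepsins Ctss, Ctsb, Ctsl, Ctsz and Ctsc, the aspartic protease Ctsd, the asparaginyl endopeptidase Lgmn, the glycosidase subunit Hexa and the cathepsin inhibitor Cst3. The genes were chosen by name, and all 9 were among the 16961 genes of the deposited table. Drop-seq, in which a droplet joins a cell with a barcoded bead and unique molecular identifiers (UMIs) let each captured mRNA be counted once, had been run on dissociated medial amygdala of naive C57BL/6J mice aged 8 or 9 weeks, with 6 male and 7 female libraries. No mutant allele, transgene or drug treatment of the mice was named for any library, and all mice had been housed alone on a reversed light cycle before dissociation. Agents added during the dissociation itself are not covered by this. The labels do not say how many animals gave a library, so a p-value here speaks of spread among libraries, which may in part be technical.

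Cathepsins are made as inactive precursors, sorted to the lysosome and activated there by cleavage at acid pH. Most cut other proteins within the chain, whereas cathepsins C and Z trim its ends, and legumain cleaves after asparagine and helps to activate other cathepsins. Cystatin C, the product of Cst3, is a secreted inhibitor of cysteine cathepsins, and in the brain microglia are known for their dense lysosomal system.

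Promoters are shown here for 4 of the genes, because Ctss came almost only from microglia, Ctsd was high in microglia and low but present everywhere, Ctsl was shared between classes, and Cst3 came from microglia and astrocytes. Sequences are those of RefSeq (GRCm38.p6), 5′ to 3′ on the strand of the gene, from 250 bases before the annotated start to 50 bases from it. A promoter was matched for 8 of the 9 genes. Capitals mark matches, on either strand, to CACGTG, the core of the element recognized by the lysosomal regulator TFEB, or to GAGGAAGT, a core bound by the myeloid factor PU.1. The windows are chr3:95526536-95526835 on the plus strand for Ctss, chr7:142387778-142388077 on the minus strand for Ctsd, chr13:64370471-64370770 on the minus strand for Ctsl and chr2:148875463-148875762 on the minus strand for Cst3. For Ctsd, Ctsl and Cst3 the RefSeq start differs from the gene positions given below, which are those of GENCODE. By the latter the Ctsl window lies wholly within the gene (chr13:64359337-64370890), and most of the Ctsd and Cst3 windows lies within theirs. These windows are thus promoters by the RefSeq start only.
Ctss: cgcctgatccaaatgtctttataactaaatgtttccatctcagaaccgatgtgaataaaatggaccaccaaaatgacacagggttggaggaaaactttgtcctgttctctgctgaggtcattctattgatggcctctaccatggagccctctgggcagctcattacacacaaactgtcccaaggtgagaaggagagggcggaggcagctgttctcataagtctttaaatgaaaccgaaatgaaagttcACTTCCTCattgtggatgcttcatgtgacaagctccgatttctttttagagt
Ctsd: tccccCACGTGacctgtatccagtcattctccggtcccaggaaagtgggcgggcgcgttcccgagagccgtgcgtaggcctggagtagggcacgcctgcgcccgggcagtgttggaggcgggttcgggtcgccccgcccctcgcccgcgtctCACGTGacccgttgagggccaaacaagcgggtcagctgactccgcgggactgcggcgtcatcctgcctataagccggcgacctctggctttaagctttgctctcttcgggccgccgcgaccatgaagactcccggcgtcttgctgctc
Ctsl: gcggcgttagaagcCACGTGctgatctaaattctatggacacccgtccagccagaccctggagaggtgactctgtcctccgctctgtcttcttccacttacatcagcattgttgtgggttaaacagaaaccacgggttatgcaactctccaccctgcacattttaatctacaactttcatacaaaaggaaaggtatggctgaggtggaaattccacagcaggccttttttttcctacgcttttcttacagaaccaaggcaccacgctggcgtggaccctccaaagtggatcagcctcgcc
Cst3: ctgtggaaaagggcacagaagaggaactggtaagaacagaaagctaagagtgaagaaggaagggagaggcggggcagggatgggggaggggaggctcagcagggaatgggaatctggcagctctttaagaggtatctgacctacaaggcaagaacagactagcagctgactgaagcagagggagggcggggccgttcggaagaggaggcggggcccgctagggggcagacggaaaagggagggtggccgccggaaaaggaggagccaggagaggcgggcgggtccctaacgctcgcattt

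CACGTG lay in the promoters of Ctsd (2 matches), Ctsl (1 match) and Lgmn (1 match, in 1 of its 2 annotated promoters), and in 7.15% of all 32851 RefSeq promoters of this length. The Ctsl window and the Lgmn window with the match lie within the genes as GENCODE places them. GAGGAAGT lay in those of Ctss and Ctsc, and in 3.20% of all promoters. In the Ctss window the match began at position -2 relative to the start base. The window of Cst3 held neither, which says only that these letters are not in it. The Ctsd promoter had 33 CpG dinucleotides and a GC content of 67.3%, against 5 and 44.0% for Ctss, 10 and 50% for Ctsl and 13 and 60.3% for Cst3. The median over all promoters was 7 CpG dinucleotides and 52.7%.

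After filtering, 24527 of the 43388 deposited cells were kept, 1149 to 2908 per library, with 3718151 to 7874074 UMIs per library. The authors' class names placed 3727 cells in microglia, 6445 in astrocytes, 4163 in oligodendrocyte precursors, 463 in newly formed oligodendrocytes, 3887 in oligodendrocytes, 1463 in endothelial cells, 764 in mural cells and 3615 in neurons. Listed markers bore these names out for microglia (12 of 12 highest there), astrocytes, oligodendrocytes, endothelial cells, mural cells and neurons (8 of 8 each). For precursors 6 of 8 were highest in the class, and for newly formed oligodendrocytes, which the cell names place between precursor and oligodendrocyte, 7 of 8. Of the 24508 distinct barcodes among kept cells, 19 occurred in more than 1 library. A level below is a gene's UMIs among all UMIs, as counts per 1000000 (CPM), in the cells of a class and library, given as the mean ± SD over 13 libraries. It counts transcripts captured at their 3′ ends and is not divided by gene length. The classes were named by the authors from expression in the same cells, so levels between classes are a description with no test.

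Ctss (chr3:95526786-95556403, plus strand, GRCm38), which encodes the cathepsin that trims the invariant chain during antigen presentation, was a transcript of microglia. Its level in microglia was 9259 ± 539 CPM, with a lowest library of 8344, a median of 9438 and a highest of 10192. The next class by CPM, oligodendrocyte precursors, had 41.5 ± 36.4 CPM, 223-fold less, though sums scaled by the trimmed mean of M values (TMM) put neurons (43.4) before precursors (36.1). The lowest class, newly formed oligodendrocytes, had 7.96 ± 6.50 CPM. Microglia were higher in 13 of 13 libraries and their range was separate from that of every other class. Microglia gave 97.8% ± 0.709 of all Ctss UMIs of a library, that is 71150 of 72797 UMIs in all. The 7 other classes overlapped their neighbours in the order of levels.

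**Figure D1:**
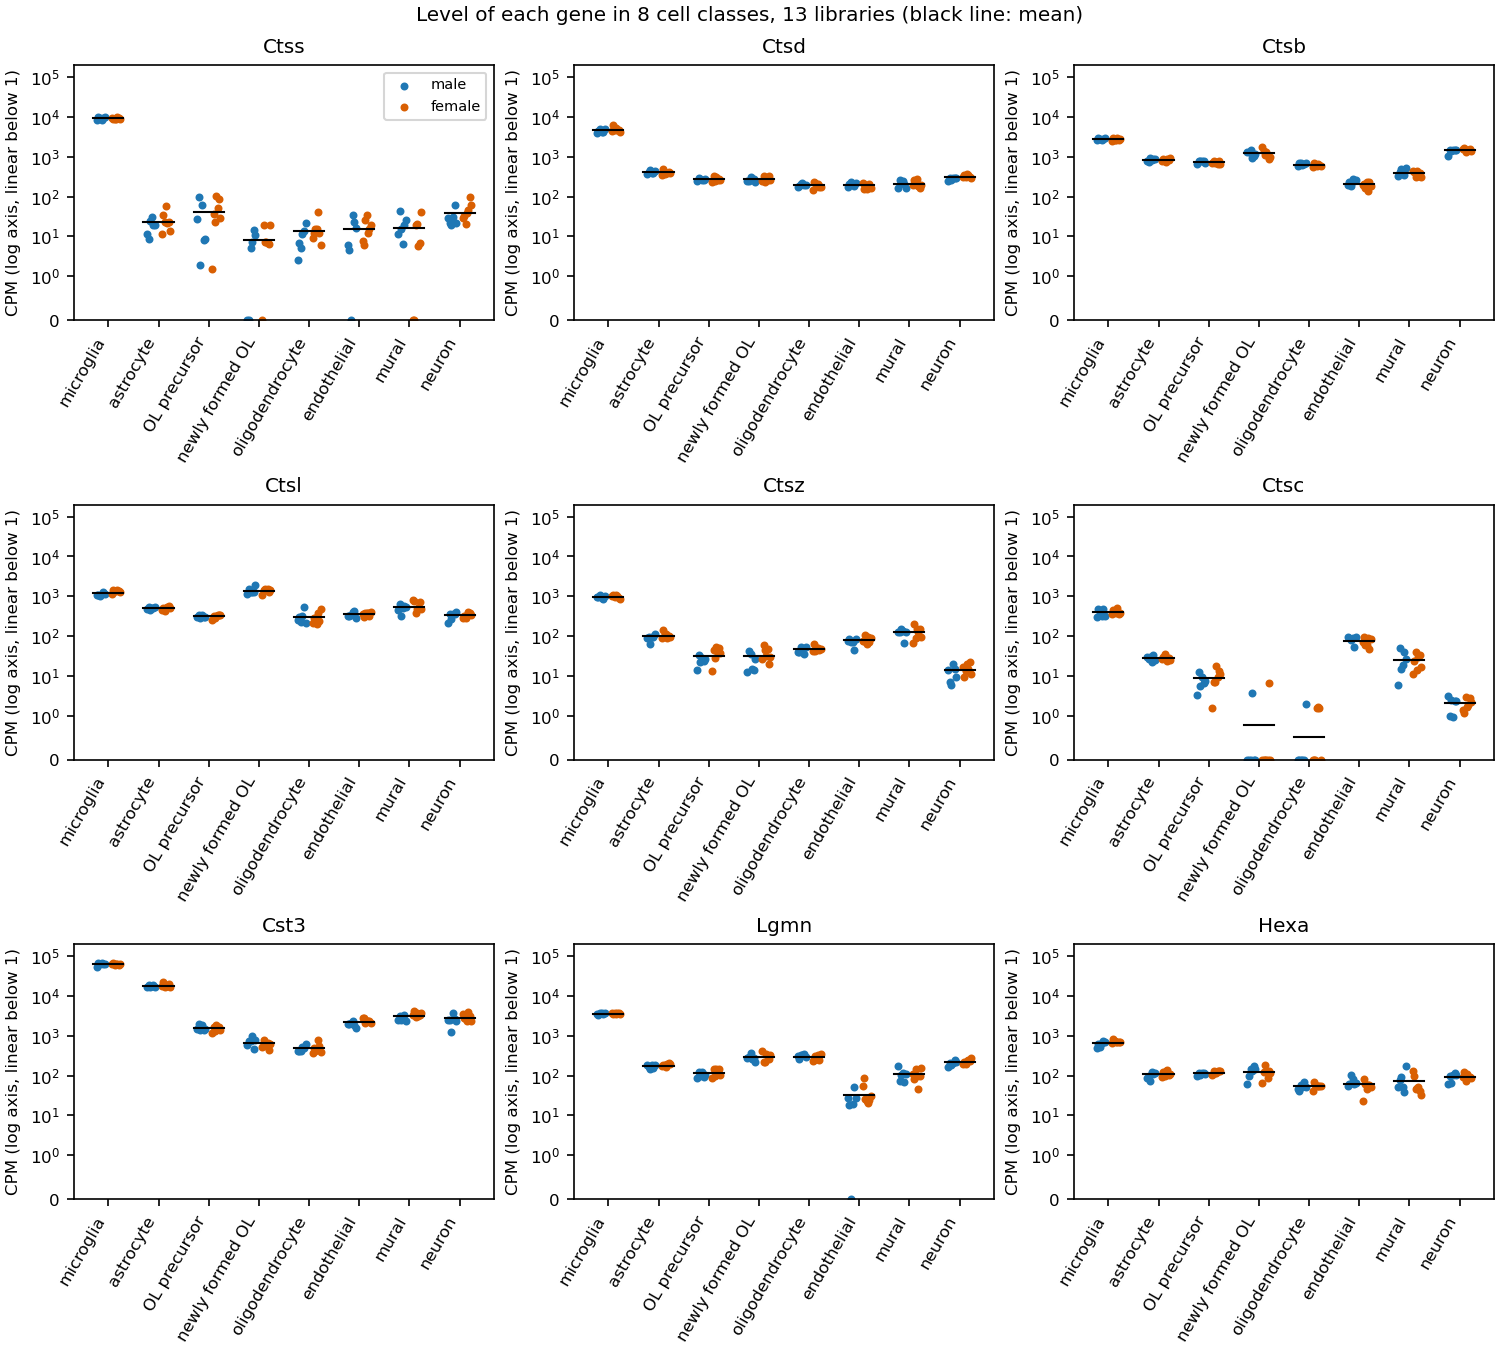
Level of the 9 genes in each of 8 cell classes (CPM, log axis that is linear below 1) in 6 male and 7 female libraries, with a black line at the mean of 13; OL stands for oligodendrocyte. Ctss drops from 9259 CPM in microglia to at most 41.5 elsewhere, whereas Ctsl in newly formed oligodendrocytes (1385 CPM) is at the level of microglia (1242 CPM).

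The low Ctss level outside microglia was set against 12 microglia markers (C1qa, C1qb, C1qc, Cx3cr1, P2ry12, P2ry13, Tmem119, Csf1r, Fcrls, Trem2, Tyrobp and Siglech), since free RNA in droplets and joined cells carry such markers into other classes. Their summed level in the 7 other classes was 0.112% to 0.509% of that in microglia, with all 12 markers present in each class. Ctss stood at 0.0869% to 0.451% of its microglia level, which is 0.770 to 1.38 times what the marker share gives. Ctss exceeded the marker share in 3 of 13 libraries for oligodendrocyte precursors and in 11 of 13 for oligodendrocytes and neurons. In oligodendrocyte precursors both were highest in female replicate 4, with 700 CPM of summed markers and 105 CPM of Ctss. No Ctss level outside microglia was therefore read as expression by those cells.

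**Figure D2:**
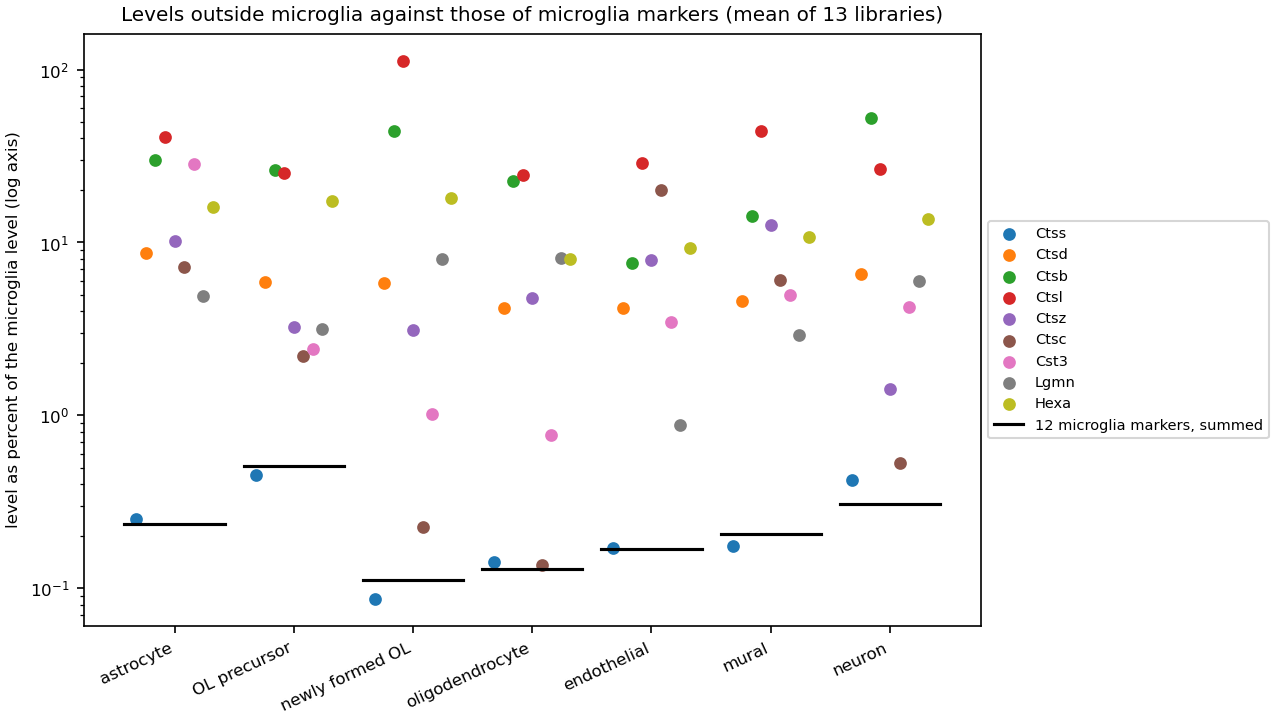
Level of each gene in the 7 classes other than microglia as a percent of its microglia level (log axis, mean of 13 libraries), with a black line at the same percent for the sum of 12 microglia markers. Ctss lies near the line in every class, above it in neurons (0.424% against 0.308%) and below it in newly formed oligodendrocytes (0.0869% against 0.112%). Ctsc lies near the line in oligodendrocytes, while Ctsb and Ctsl lie far above it.

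The other genes lay above that share in most classes. Over the 7 classes, Ctsd was 11.2 to 49.5 times, Ctsb 44.9 to 387 times, Ctsl 48.0 to 970 times, Ctsz 4.66 to 62.2 times, Hexa 33.2 to 156 times, Lgmn 5.16 to 71.1 times and Cst3 4.77 to 120 times the level that the microglia marker share gives. These 7 genes exceeded it in 13 of 13 libraries for every class, except Lgmn in endothelial cells, which did so in 12 of 13. Ctsc was the exception by class. It was 4.24 to 115 times the marker share in astrocytes, oligodendrocyte precursors, endothelial cells and mural cells, but 0.965 times in oligodendrocytes, 1.78 times in newly formed oligodendrocytes and 1.66 times in neurons. Its level there was 0.516 ± 0.811, 0.778 ± 1.99 and 2.01 ± 0.737 CPM, and 9 of 13 libraries of oligodendrocytes and 11 of 13 of newly formed oligodendrocytes had 0 UMIs. Ctsc exceeded the marker share in 3 of 13 libraries of oligodendrocytes, 2 of 13 of newly formed oligodendrocytes and 13 of 13 of neurons.

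Ctsd (chr7:142375911-142388038, minus strand), the main aspartic protease of the lysosome, was 4660 ± 585 CPM in microglia. Libraries ranged from 4013 to 6160 with a median of 4662, and the highest was female replicate 2. Astrocytes followed at 403 ± 39.8 CPM, 11.6-fold lower, and endothelial cells were lowest at 193 ± 26.3. The 7 other classes thus lay within 2.09-fold of each other, each near the same modest level. Microglia gave 67.0% ± 5.76 of Ctsd UMIs, astrocytes 10.9% ± 3.40 and neurons 6.94% ± 2.61.

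Lgmn (chr12:102394084-102439813, minus strand), the asparaginyl endopeptidase, was 3626 ± 134 CPM in microglia, from 3282 to 3789 with a median of 3675. Oligodendrocytes (294 ± 40.8 CPM) and newly formed oligodendrocytes (289 ± 59.7) came next and did not differ beyond their spread, with the former higher in 8 of 13 libraries. Neurons had 216 ± 30.2 CPM and astrocytes 178 ± 15.3. Endothelial cells stood lowest at 31.6 ± 21.9 CPM. Among the classes outside microglia, Lgmn was therefore led by the oligodendrocyte lineage past the precursor stage, where precursors had 114 ± 22.6 CPM.

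Ctsz (chr2:174427493-174439039, minus strand), a carboxypeptidase, was 974 ± 78.3 CPM in microglia, from 845 to 1092 with a median of 977. Mural cells, the pericytes and smooth muscle of vessels, had 124 ± 36.7 CPM, 7.84-fold lower, and astrocytes 99.0 ± 18.7, an order that TMM scaling turned (108 CPM in astrocytes and 104 in mural cells). Endothelial cells had 77.3 ± 14.9 CPM. Neurons were lowest at 13.6 ± 5.10 CPM. Microglia were higher than every class in 13 of 13 libraries.

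Ctsc (chr7:88278085-88310888, plus strand), a dipeptidyl peptidase that activates serine proteases of immune cells, was 394 ± 65.2 CPM in microglia, from 309 to 501 with a median of 369. Endothelial cells had 76.8 ± 16.9 CPM, 5.13-fold lower, and their range was separate from that of astrocytes below (28.0 ± 4.03 CPM). Ctsc thus was also present in cells of the vessel wall, with 115 times the microglia marker share in endothelial cells and 29.0 times in mural cells (24.7 ± 13 CPM).

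Hexa (chr9:59539540-59565109, plus strand), the alpha subunit of the enzyme that degrades GM2 ganglioside, was 674 ± 89.8 CPM in microglia, from 487 to 842 with a median of 688. Newly formed oligodendrocytes (122 ± 37.3 CPM), oligodendrocyte precursors (117 ± 11.7) and astrocytes (107 ± 17.5) followed and overlapped, and with TMM scaling astrocytes (117) came first of these. Oligodendrocytes were lowest by CPM at 53.6 ± 8.37, below endothelial cells (61.4), but TMM scaling put endothelial cells (56.1) below oligodendrocytes (71.6). By CPM the 7 other classes spanned 2.28-fold. Microglia gave 48.1% ± 6.58 of all Hexa UMIs.

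Ctsb (chr14:63122462-63145923, plus strand), a protease with both endopeptidase and carboxypeptidase activity, was shared by glia and neurons. Microglia had 2793 ± 173 CPM, from 2477 to 3028 with a median of 2749. Neurons had 1453 ± 156 CPM, from 1027 in male replicate 1 to 1672, with a median of 1487. The microglia level was 1.92-fold higher, in 13 of 13 libraries, and the ranges were separate. Newly formed oligodendrocytes followed at 1224 ± 246 CPM, below neurons in 10 of 13 libraries with overlapping ranges, then astrocytes (837 ± 64.7), oligodendrocyte precursors (733 ± 48.3) and oligodendrocytes (635 ± 49.1), where TMM scaling put oligodendrocytes (846) before precursors (635). Endothelial cells were lowest at 211 ± 36.7 CPM. Microglia gave 29.3% ± 5.36 of Ctsb UMIs, neurons 23.2% ± 7.34 and astrocytes 16.1% ± 4.48, so no class gave most of them.

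Ctsl (chr13:64359337-64370890, minus strand), a broad endopeptidase of lysosomes, was the 1 gene of the 9 for which microglia were not the highest class by CPM, an order that turned with another scaling. Newly formed oligodendrocytes had 1385 ± 206 CPM, from 1078 to 1871 with a median of 1403. Microglia had 1242 ± 147 CPM, from 998 to 1461 with a median of 1283. The former were higher in 11 of 13 libraries, but the ranges overlapped. When sums were scaled by TMM the order was the opposite, with 1373 CPM in microglia and 1182 in newly formed oligodendrocytes. Within the oligodendrocyte lineage the level was 312 ± 26.2 CPM in precursors, 1385 in the newly formed stage and 304 ± 106 in oligodendrocytes. The middle stage was thus above the stages on either side of it, whose values overlapped. Mural cells had 547 ± 140 CPM and astrocytes 499 ± 41.0, which overlapped and changed places with TMM scaling (458 and 545), and neurons had 330 ± 54.4.

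Cst3 (chr2:148871722-148875692, minus strand) was 63931 ± 3542 CPM in microglia. Libraries lay between 54932 in male replicate 1 and 68670, with a median of 64703. Astrocytes had 18067 ± 1675 CPM, from 16383 to 22497 with a median of 17561, and female replicate 2 was highest. Microglia were 3.54-fold above astrocytes in 13 of 13 libraries, and astrocytes were separate from the mural cells that followed. Mural cells had 3180 ± 544 CPM, neurons 2719 ± 706 and endothelial cells 2207 ± 352, with overlapping neighbours, and TMM scaling put neurons (3009) before mural cells (2662). Oligodendrocyte precursors had 1557 ± 239 CPM. Newly formed oligodendrocytes had 649 ± 153 and oligodendrocytes 489 ± 117, an order that TMM scaling turned (555 and 652).

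By source, microglia gave 60.1% ± 7.69 and astrocytes 31.0% ± 7.50 of the 820229 Cst3 UMIs, on average over libraries. Neurons gave 3.79% ± 1.06 and oligodendrocyte precursors 2.42% ± 0.627, and each of the 4 other classes gave under 1%. For comparison, microglia held 11.3% ± 2.13 of all UMIs and astrocytes 20.4% ± 4.60. The microglia share ranged from 45.3% in male replicate 1, where astrocytes gave 45.0%, to 74.3% in female replicate 4, where astrocytes gave 17.1%. Microglia gave the largest share in every library, and the 2 classes together gave most of the Cst3 UMIs of the kept cells. The filter kept 3727 of 6366 deposited microglia, 6445 of 12640 astrocytes and 3615 of 10166 neurons. Cells recovered after dissociation need not match the makeup of the tissue, so the shares in the tissue were not measured.

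**Figure D3:**
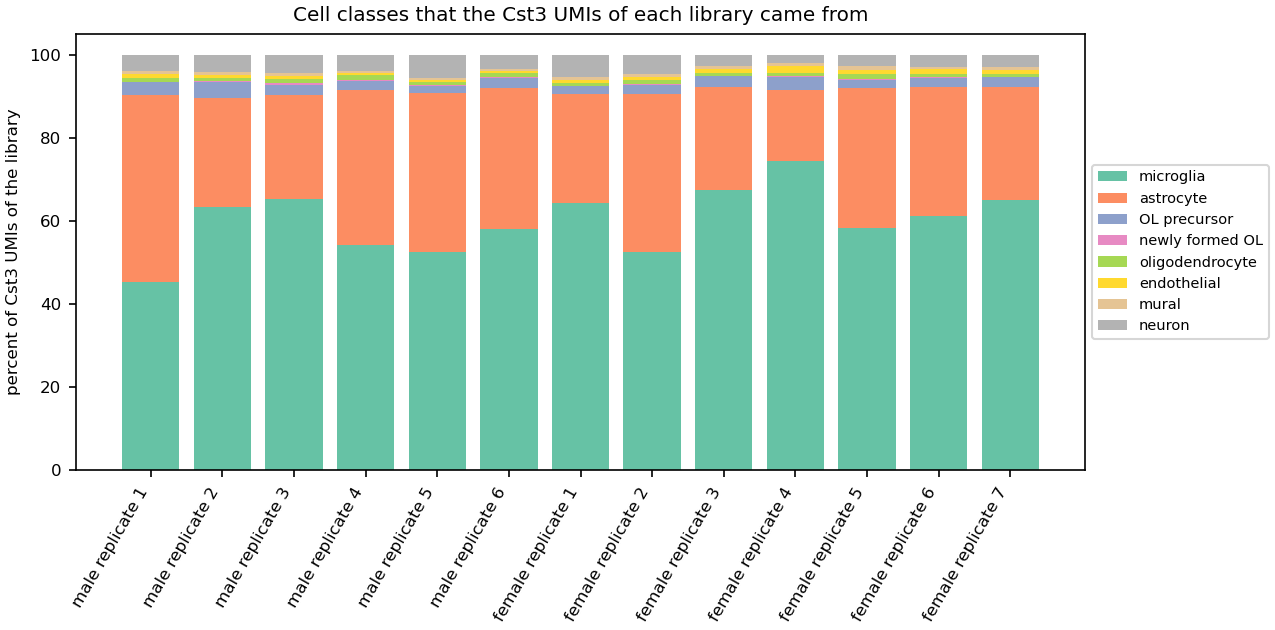
Percent of the Cst3 UMIs of each library (bars, 13 libraries) that came from each of 8 cell classes; OL stands for oligodendrocyte. Microglia (45.3% to 74.3%) and astrocytes (17.1% to 45.0%) fill most of every bar.

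Because Cst3 is high in 2 classes, its level elsewhere was also set against the sum of the microglia marker share and an astrocyte marker share (the median over 8 astrocyte markers). Cst3 exceeded that sum in 13 of 13 libraries in each of the 6 remaining classes. It was 7.95 times the sum in endothelial cells, 6.48 times in mural cells, 3.71 times in newly formed oligodendrocytes, 2.92 times in oligodendrocytes, 2.82 times in neurons and 2.07 times in oligodendrocyte precursors. By that median, astrocyte markers stood at 4.25% of their astrocyte level in neurons and 2.36% in precursors. Summed as the microglia markers were, they came to 2513 CPM in neurons and 1897 in precursors, against 34799 in astrocytes. That is a higher share than the median gives, in each of the 6 classes, so the size of the excess depends on the measure. Ratios with summed astrocyte markers were not computed. Whether free RNA accounts for more of the Cst3 level in these classes was not tested.

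No sex difference in the source of Cst3 passed the test. The microglia share was 56.4% ± 7.35 in males and 63.3% ± 6.93 in females, and the astrocyte share 34.3% ± 7.61 and 28.3% ± 6.70. Exact two-sided permutation tests over all assignments of the 13 libraries to the sexes gave p = 0.109 and p = 0.162 for these. Over the 8 shares, Benjamini-Hochberg adjusted p ran from 0.177 to 0.490. The smallest unadjusted exact p values were 0.0385 for mural cells and 0.0443 for endothelial cells, which females had at higher shares.

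Single cells were compared after each was thinned to 800 UMIs, which left out 150 of 3727 microglia and 274 of 3615 neurons. A Ctss UMI was found in 98.0% of microglia (3504 of 3577, exact 95% interval 97.4 to 98.4) and in 0.449% to 2.63% of the cells of other classes. The latter shares were read as background for Ctss alone, since stray UMIs of a gene depend on its level in microglia. Unthinned median depths were 1788 UMIs in microglia and 1755 in neurons, and the unthinned shares were 98.7% and 5.03%. Cst3 was found in 99.2% of microglia and 99.2% of astrocytes, in 64.8% of neurons and in 29.1% of oligodendrocytes. Ctsb was found in 82.4% of microglia and 61.2% of neurons (interval 59.5 to 62.9), and Ctsl in 58.9% of newly formed oligodendrocytes and 57.6% of microglia, whose intervals overlapped. Ctsc was found in 25.2% of microglia, and in 0 of 445 newly formed oligodendrocytes, where the interval reaches 0.826%. These intervals cover counting error only.

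At 1500 UMIs, 2320 microglia could be compared, and the median microglial cell held UMIs of 7 of the 9 genes. All 9 were found in 12.9% of cells and at most 4 in 32 cells. Cell by cell, on log2-scaled UMI counts, Cst3 went with Ctss (Pearson r 0.65), with Ctsd (0.39) and with Lgmn (0.36). By contrast, Ctsb and Ctsc stood at -0.04 and -0.14 with Cst3 and at 0.16 with each other. These values include cells with markers of perivascular macrophages, described next. Without the 110 cells that had any such marker, Ctsb and Ctsc stood at 0.15 and 0.01 with Cst3 and at 0.03 with each other, and Cst3 at 0.58 with Ctss. The first values are over 2320 cells of 13 libraries at equal depth, cells are not independent replicates, and no test is attached. Mean UMIs per microglial cell at this depth were 95.3 for Cst3, 13.9 for Ctss, 4.10 for Ctsb and 0.588 for Ctsc. Counting noise lowers r for genes with few UMIs, so the values are not comparable between genes.

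Ctsb and Ctsc stood apart in a small set of cells within the microglia class. UMIs of at least 2 of 9 markers of perivascular macrophages (Mrc1, Cd163, F13a1, Pf4, Lyve1, Ms4a7, Cbr2, Cd209f and Clec10a) were present in 108 of the 3727 cells, against 3586 cells with none and 33 with 1. In these cells Ctsb was 8693 CPM and in the cells with none 2549 CPM, a ratio of 3.41, and Ctsc was 1766 and 337 CPM, a ratio of 5.24. Both were higher in 11 of 11 libraries with at least 5 such cells. Hexa was 1025 and 666 CPM, higher in 9 of 11. The remaining 6 genes were lower in the cells with macrophage markers in 11 of 11 libraries, with a ratio of 0.208 for Cst3, 0.232 for Ctss, 0.387 for Lgmn, 0.432 for Ctsd, 0.524 for Ctsl and 0.683 for Ctsz.

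The same cells had 10.4 CPM of Tmem119 against 1579, and 229 CPM of Cx3cr1 against 5758, both markers of microglia proper, while C1qa was 4866 against 5174 CPM. Their median depth was 2327 UMIs against 1776. They are a range cut at a marker count, and the values are a description. With at least 3 markers required, in 105 cells, the ratio was 3.53 for Ctsb and 5.33 for Ctsc.

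**Figure D4:**
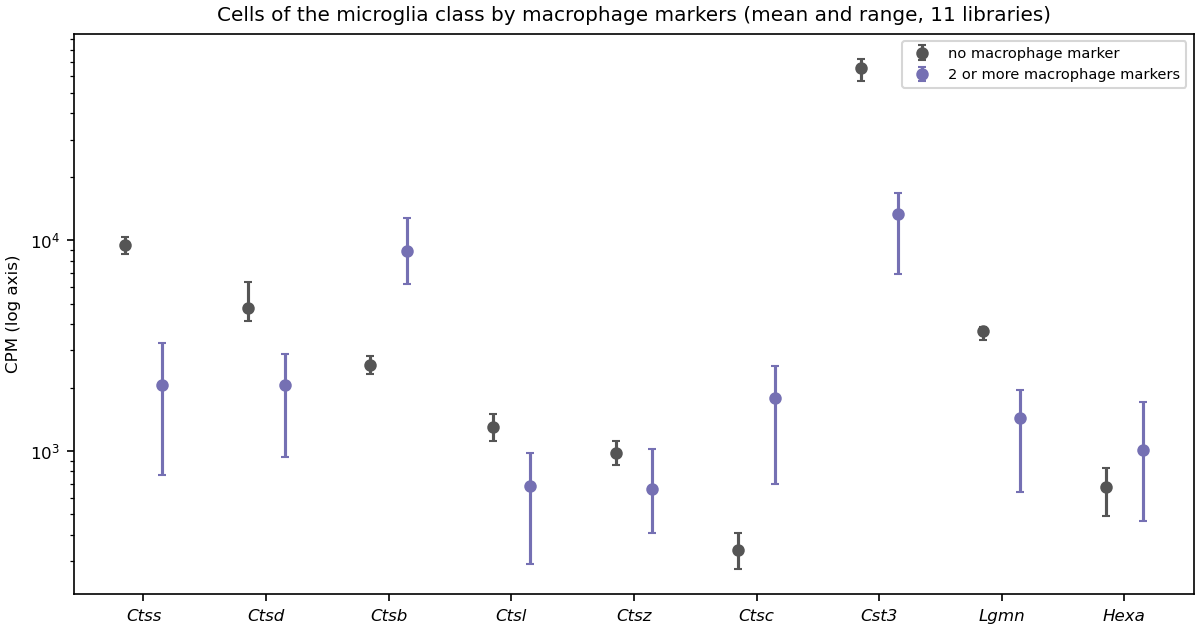
Level of the 9 genes (CPM, log axis) in cells of the microglia class with no macrophage marker and with 2 or more of 9 macrophage markers, as mean and range over the 11 libraries with at least 5 of the latter. Ctsb and Ctsc are higher, and Ctss, Cst3, Ctsd, Ctsl, Ctsz and Lgmn lower, in the cells with macrophage markers.

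The rest of the lysosomal system was described from 5 gene lists. Of 37 other lysosomal hydrolases and activators, 22 had their highest class mean in microglia (59.5%), 6 in neurons and 3 in astrocytes, and of the 34 that reached 20 CPM in a class, 19 were highest in microglia (55.9%) and 6 in neurons. Of all 12003 genes with at least 20 CPM in a class, 14.6% were highest in microglia and 16.3% in neurons. Npc2, a cholesterol carrier, was 1079 ± 71.6 CPM in microglia and 543 ± 46.6 in oligodendrocytes. Psap, the precursor of the saposins, was 1722 ± 168 CPM in neurons and 1645 ± 214 in microglia, which overlapped. Gaa, the acid alpha-glucosidase, was highest in neurons, at 1369 ± 119 CPM against 210 ± 12.9 in astrocytes.

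Of 23 lysosomal membrane genes, which all reached 20 CPM in a class, 9 were highest in neurons (39.1%) and 4 in microglia (17.4%, close to the share of all genes). Lamp1, an abundant membrane glycoprotein, was 2021 ± 121 CPM in oligodendrocytes and 1008 CPM in microglia. Among 13 genes of delivery and control, of which 12 were in the table, 3 were highest in microglia, 3 in neurons, 2 in newly formed oligodendrocytes and 2 in oligodendrocytes. Of the 11 that reached 20 CPM in a class, 3 were highest in microglia (27.3%, against 14.6% of all genes) and 2 in neurons (18.2%, against 16.3%). Sort1, a sorting receptor, was 260 ± 27.8 CPM in oligodendrocytes and Tfeb, the lysosomal transcription factor, 76.97 ± 16.1 in newly formed oligodendrocytes.

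Of 8 other cathepsin genes, 6 were in the table and 4 of them were highest in microglia, with Ctsw at only 7.75 ± 5.87 CPM there and 7.34 in endothelial cells. Of the 5 that reached 20 CPM in a class, 3 were highest in microglia, against 14.6% of all genes at that level. Ctsa, a carboxypeptidase that also protects other lysosomal enzymes, was 830 ± 57.3 CPM there and 218 ± 29.2 in oligodendrocytes. Ctsh was 504 ± 38.9 CPM in microglia and 419 ± 57.1 in endothelial cells, but at most 3.21 in astrocytes, neurons and the oligodendrocyte lineage. Ctsf was 230 ± 31.3 CPM in microglia and 205 ± 30.0 in astrocytes, and Ctso was highest in astrocytes, at 203 ± 19.2. Ctsk, the collagenolytic cathepsin of bone, was 84.2 ± 21.6 CPM in oligodendrocytes. Of 9 other cystatins and stefins 3 were in the table, and the most abundant, the intracellular inhibitor Cstb, was 230 ± 23.3 CPM in oligodendrocytes, 186 ± 38.8 in endothelial cells and 118 in microglia.

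Genes with the most similar pattern were ranked by Pearson's r of log2(CPM + 5) over the 8 class means, among the 12003 genes above. For Ctss these were Aif1, C1qa and C1qb, each with r of 0.998. For Ctsd the leading gene was Slco4a1 (0.99), for Ctsc Pnp (0.99), for Hexa Gm26917 (0.98), for Ctsz Trim65 (0.97), for Cst3 Cyp4v3 (0.96), for Ctsb Slc35c2 (0.96) and for Lgmn Tmem55b (0.95). For Ctsl the leading gene was Epb4.1l2 (0.97), which was itself highest in newly formed oligodendrocytes, at 1257 CPM. Within the 9 genes Ctsd went with Ctss (0.97) and Hexa (0.97), and Ctsb went least with Ctsc (0.10). The 8 points share libraries and depth, so these values are a description with no p.

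The design compares males with females. Within microglia all 9 genes were tested and 1 passed, Ctsl, where 0.349% of the 7458 genes tested were called. Ctsl was 998 CPM in the lowest, 1110 in the median and 1283 in the highest male library, and 1155, 1349 and 1461 in the female libraries. The ranges overlapped, and 0 of 6 males lay above the female median. On the TMM scale the means were 1166 ± 107 CPM in males and 1399 ± 101 in females, a log2 difference of -0.26 ± 0.06 (SE), with an adjusted p of 0.0403 in edgeR's quasi-likelihood test. The call was lost when any library but male replicate 5 or female replicate 1 was left out, where adjusted p ran up to 0.170, and when at least 1000 genes per cell were required (0.157). The log2 difference stayed between -0.31 and -0.23 with each library left out.

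Markers of other cells were followed beside it. In microglia the 9 macrophage markers summed to 341 to 1172 CPM in males and 49.6 to 1498 in females, with 9 of 9 present and 9 of 9 higher on average in females. Without the cells that had any of them the Ctsl difference was -0.26 and the adjusted p 0.0274. The 8 endothelial markers summed to 42.2 to 313 CPM in microglia of males and 78.1 to 582 in those of females, with 8 of 8 higher on average in females, and their part in the result was not tested. Markers of neurons and of oligodendrocytes were higher on average in males, 7 of 8 in each list. The 8 neuron markers summed to 134 ± 38.7 CPM in microglia of males and 90.4 ± 25.9 in those of females, with 6 of 6 males above the female median. The 8 oligodendrocyte markers summed to 589 ± 115 and 487 ± 54.5 CPM, with 4 of 6 males above it. The part of these in the result was not tested. The 8 markers of newly formed oligodendrocytes summed to 350 ± 54.1 and 338 ± 23.1 CPM.

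The other 8 genes did not pass in microglia, 1 of them (Hexa) with an unadjusted p under 0.05. Hexa was 651 ± 107 CPM in males and 744 ± 64.9 in females on the TMM scale, with a log2 difference of -0.18 ± 0.08 and an adjusted p of 0.555. Ctsd had -0.14 ± 0.07 (adjusted p = 0.707), Ctsc had -0.09 ± 0.11, and Ctss, Ctsb, Cst3, Lgmn and Ctsz lay between -0.04 and 0.02. Over the 9 genes the median difference was -0.04, and over all genes tested in microglia 0.00.

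In the other classes edgeR called 0 of the genes tested, and DESeq2 also called 0. These were 0 of 9 in astrocytes (1.16% of all genes called), 0 of 8 in oligodendrocyte precursors (0.131%), 0 of 6 in newly formed oligodendrocytes (0.0889%) and 0 of 8 in oligodendrocytes (0.261%). They were 0 of 7 in endothelial cells (1.28%), 0 of 6 in mural cells (0.123%) and 0 of 8 in neurons (0.0623%). Genes not tested had too few counts, namely Ctsc in precursors, oligodendrocytes and neurons, Ctss, Ctsz and Ctsc in newly formed oligodendrocytes, Ctss and Lgmn in endothelial cells, and Ctss, Ctsc and Hexa in mural cells. An unadjusted p under 0.05 was given to Ctsz in precursors, Cst3 in endothelial and in mural cells, and Ctsd in neurons, all lower in males. For Cst3 the log2 difference was -0.29 ± 0.10 in endothelial cells (adjusted p = 0.190) and -0.33 ± 0.13 in mural cells (adjusted p = 0.595).

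Whether the sex difference of a gene varied between classes was tested with class by sex terms over 8 classes and the library as a block. None of the 9 genes passed in edgeR, where 0.281% of 13187 genes did. The smallest p was that of Cst3 (unadjusted 0.0160, adjusted 0.445), and 1 of 9 genes had an unadjusted p under 0.05. The Ctsl difference in microglia is thus not shown to differ from that of other classes (unadjusted p = 0.497).

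**Figure D5:**
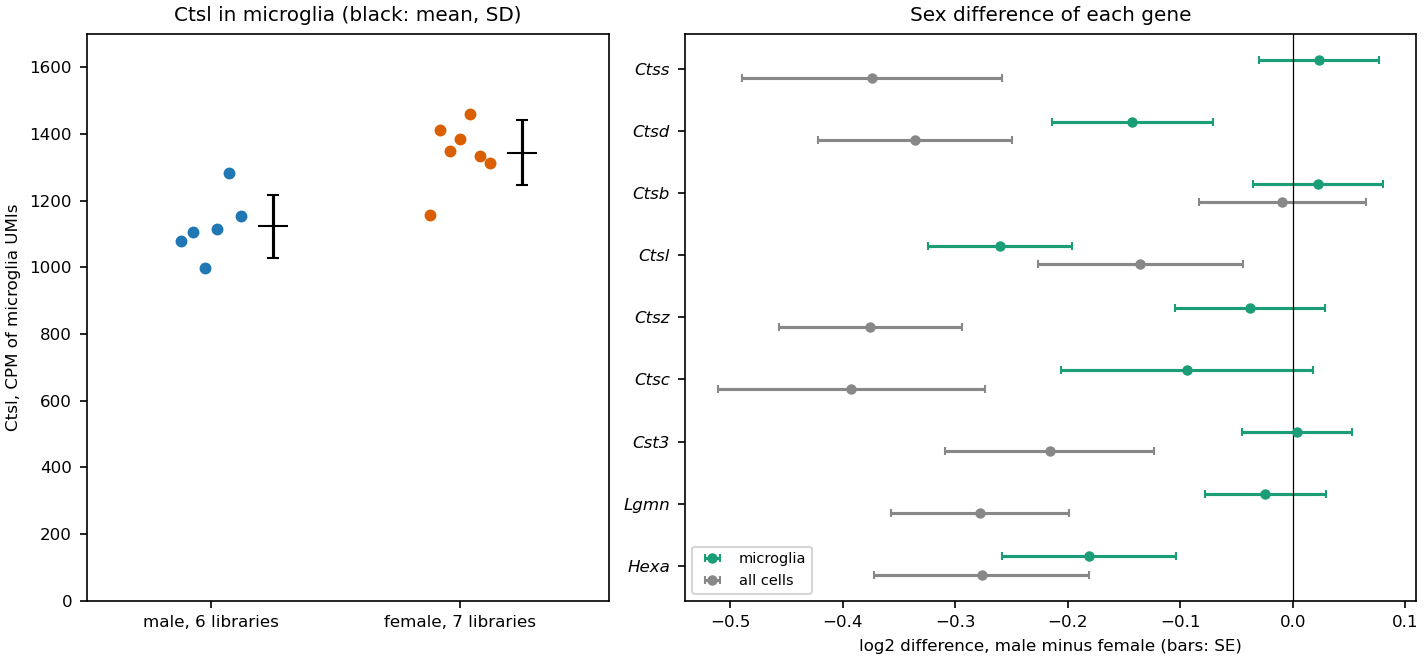
Left, Ctsl in microglia (CPM) in 6 male and 7 female libraries, with mean and SD in black. Right, log2 difference between males and females of each gene within microglia and over all cells, with bars for the SE; in microglia only Ctsl passed the test, while over all cells all 9 values lie below 0 and Ctsz passed.

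Summed over all cells of a library, all 9 genes had lower values in males, and 1 passed, Ctsz, where 0.594% of 14314 genes were called. Its level was 118 CPM in the lowest and 157 in the highest male library, and 152 and 210 in the female ones, so the ranges overlapped. The log2 difference was -0.38 ± 0.08 and the adjusted p 0.0447 in edgeR. Ctsc (-0.39 ± 0.12), Ctss (-0.37 ± 0.12), Ctsd (-0.34 ± 0.09), Lgmn (-0.28 ± 0.08), Hexa (-0.28 ± 0.10) and Cst3 (-0.22 ± 0.09) had an unadjusted p under 0.05 and did not pass, with adjusted p from 0.0831 to 0.302. DESeq2 called Ctsd, Ctsz and Lgmn. The Ctsz call was lost without any of 9 libraries (all but male replicate 6 and female replicates 1, 2 and 7), and with age as a covariate (adjusted p = 0.0690).

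Markers of several classes differed beside these sums. Microglia were 13.6% ± 1.22 of kept cells in males and 16.5% ± 2.04 in females, and the 12 microglia markers summed to 3776 to 4927 CPM over all cells in males and 4523 to 6944 in females. All 12 were higher on average in females, and 0 of 6 males lay above the female median. Macrophage markers summed to 72.3 ± 34.3 CPM in males and 113 ± 59.0 in females, endothelial markers to 1321 ± 314 and 1712 ± 438, and mural markers to 709 ± 108 and 891 ± 207. Neuron markers were the other way, at 1721 ± 608 CPM in males and 1231 ± 356 in females, with 0 of 8 higher on average in females. The part of the cells' makeup in the Ctsz result was not tested. Within microglia Ctsz differed by -0.04 ± 0.07 (adjusted p = 0.963). Of the 76 genes of the 5 lists that were tested over all cells, edgeR called 1, Cd68, a membrane glycoprotein of microglial lysosomes, at 59.7 ± 8.15 CPM in males and 86.5 ± 9.65 in females (adjusted p = 0.0187). In microglia it called 0 of the 70 list genes tested, with an unadjusted p under 0.05 for 8 of them, as for 540 of all 7458 genes.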

How the data were processed

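Drop-seq libraries of medial amygdala (6 male, 7 female) were analysed. The submitters' processing notes name bcl2fastq (2.17.1.14), STAR (2.5.0a) and the mm10 build; neither the collapse of UMIs nor the choice of cells is given in the sources used here. What the authors deposited were UMI counts, as whole numbers without normalization, and the cell names gave library and class. Here a cell needed 500 detected genes, and 281 doublets, called within libraries by Scrublet in scanpy 1.11.5, were dropped. Counts were summed per class and library. The sexes were compared with edgeR 4.0.16 in R 4.3.3 (TMM, filterByExpr, robust quasi-likelihood F test, two-sided), adjusted by Benjamini-Hochberg over all genes tested, at a threshold of 0.05, with DESeq2 1.42.0 as an alternative. The SE of a log2 difference was derived from that test, as the size of the difference divided by the square root of F. On a single simulated data set, edgeR recovered 88 of 100 genes changed 2-fold and 48 of 100 changed 1.5-fold in microglia. It made 9 false calls among the unchanged genes of 7458. Every simulated gene had the same dispersion, and libraries differed only by depth and the set changes, so real libraries may behave otherwise. No change as small as that of Ctsl was simulated. Shares were tested by exact permutation with scipy 1.17.1. Gene positions are from GENCODE M21. The genes, lists and macrophage markers were chosen with earlier results of these data known. The text names the 9 genes, list genes past the threshold, up to 4 abundant genes per list, and the genes most similar in pattern; further list genes (such as Ctsk, Sort1 and Tfeb) were chosen after their values were seen. Numbers of male and female replicates were not taken as pairs: over all cells and in each of 3 classes checked, 1 of 6 pairs had a correlation of deviations over 0.1. In astrocytes, however, most male libraries correlated best with the female library of their own number, so whether equal numbers mark pairs is not known.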

Additional observations from a re-analysis of the deposited data

Results flagged for a closer look

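In 14 of 144 groups (9 genes, 8 classes, 2 sexes), the library at one end stood apart from the rest by Dixon's test at 95%, where chance gives about 5% of groups. In microglia, Cst3 in male replicate 1 was 54932 CPM, with the next library at 64826, Lgmn in male replicate 2 was 3282, with the next at 3579, and Hexa in female replicate 2 was 842, with the next at 722. In neurons, Ctsb in male replicate 1 was 1027 CPM, with the next at 1405, and Ctss in male replicate 5 was 60.4, with the next at 30.9. In oligodendrocytes, Ctsl in male replicate 5 was 538 CPM, with the next at 315, and Ctsz in female replicate 2 was 63.0, with the next at 50.8. Female replicate 5 had the highest Ctss (41.5 CPM, next 15.6) and Cst3 (787 CPM, next 544) among female oligodendrocytes, and its summed microglia markers were also the highest of that class, at 187 CPM. Male replicate 5 had the lowest Ctsz in endothelial cells (45.4 CPM from 6 UMIs) and in mural cells (68.6 CPM from 7 UMIs). Ctsc stood apart on 1 or 2 UMIs in newly formed oligodendrocytes of male replicate 4 (3.62 CPM) and female replicate 6 (6.49 CPM), and in oligodendrocytes of male replicate 6 (1.93 CPM), where the other libraries of the same sex had 0 UMIs. The causes were not tested.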

How the results depend on the processing

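The mean TMM factor by which class sums are divided ran from 0.751 in oligodendrocytes to 1.20 in mural cells and was 0.908 in microglia, where scaled levels were 10217 CPM for Ctss, 3083 for Ctsb, 1072 for Ctsz, 70538 for Cst3 and 4000.3 for Lgmn. TMM scaling turned 15 of the 63 neighbouring pairs in the orders of levels, in each gene but Lgmn, and microglia were highest for 9 of 9 genes, against 8 by CPM. It turned the order of Ctsl (microglia over newly formed oligodendrocytes 1.16, against 0.897 by CPM) and took the ratio of Lgmn in microglia to oligodendrocytes from 12.3 to 10.2. Of the Cst3 UMIs, precursors gave 3.05% with at least 1000 genes per cell, and oligodendrocytes 1.11% with that filter and 1.18% with doublets kept. Shares of cells with a UMI moved with depth by construction. At 1500 UMIs and without thinning they were 98.8% and 98.7% for Ctss in microglia, 3.66% and 5.03% for Ctss in neurons, 81.4% and 78.2% for Ctsb in neurons, and 99.8% and 99.7% for Cst3 in astrocytes.

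In microglia, 1 of the 9 genes was called between the sexes, and 0 with at least 1000 genes per cell and 0 to 1 with each library left out. Genes called in microglia numbered 26, against 41 with no filter on low counts and 18 to 47 with each library left out. Over all cells 1 of the 9 was called, against 3 with DESeq2, 0 with the replicate block, 0 with age as a covariate and 0 to 3 with each library left out (3 without female replicate 2, namely Ctss, Ctsz and Lgmn). Genes called over all cells numbered 85, against 350 with DESeq2, 14 with the replicate block, 56 with age as a covariate and 10 to 234 with each library left out. The labels do not say that equal replicate numbers mark pairs. The male library correlated best with the female library of its own number for 0 of 6 over all cells, 2 of 6 in microglia, 4 of 6 in astrocytes and 1 of 6 in neurons, and 1 of 6 pairs was over 0.1 in each of these. With the replicate block Ctsl in microglia had an adjusted p of 0.0217 and Ctsz over all cells 0.0798. The class by sex term called 37 genes, and 21 to 71 with each library left out, with 0 of the 9 genes under any setting run. With no filter on low counts, genes called in the other classes were 181 in astrocytes (113 with it), 86 in oligodendrocytes (22), 9 in newly formed oligodendrocytes (4) and 17 in mural cells (4), and endothelial calls fell from 66 to 43 under the replicate block. With each library left out, calls ran from 64 to 205 in astrocytes, 10 to 26 in precursors, 15 to 103 in oligodendrocytes, 36 to 136 in endothelial cells and 3 to 14 in mural cells. The causes were not tested. The alternatives without macrophage markers (correlations over cells included), with at least 3 of them, with astrocyte markers and with no filter over all cells were chosen after seeing the data. Depth limits the rarer classes: newly formed oligodendrocytes held 12 to 56 cells and mural cells 30 to 80 cells per library, so 3 of the 9 genes were below the count filter in each.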
